A study of Mus musculus with 18 samples.

Results

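The comparison described here set the fracture callus of young mice on day 5 after a femur fracture against that of young mice on day 1. The callus is the tissue that grows around a break and bridges it. The 6 arrays, 3 of day 5 and 3 of day 1, were those whose titles name young mice and the day, out of 18 arrays in the series, and all 45101 probe sets of the array were considered. The young mice were females of 6 weeks. The strain is uncertain, since the sample labels name BALB/c and the series' design text names a C57BL/6 line for the same animals. The other 12 arrays were 3 young arrays of day 3 and 9 arrays of old mice, which were female retired breeders of 8 months, on days 1, 3 and 5. All groups were fractured, and no unfractured bone was analysed here. Total RNA of dissected callus was biotin labelled and hybridised to Affymetrix Mouse Genome 430 2.0 arrays. Whether each array stands for its own animal is not stated in the labels, so p-values measure only how far these samples spread, which may be technical spread.

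As background, a broken long bone first fills with a blood clot into which neutrophils and then macrophages move. Mesenchymal cells of the periosteum and the surrounding tissue then multiply, lay down a fibrous matrix and turn into chondrocytes, which build a soft cartilage callus, or into osteoblasts, which make bone directly. Osteoclasts, muscle next to the break and bone marrow can all contribute RNA to a dissected callus, and in such bulk tissue fewer cells of a type cannot be told apart from less RNA per cell.

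Levels are given as normalized log2 signal for the brightest probe set of a gene, and differences are day 5 minus day 1 on the same log2 scale, where 1 is a doubling, with the fit's standard error (SE) after ±. Dim genes have their change understated, because 16 was added to each signal before the logarithm. Levels of different genes are not comparable. A gene was called changed when limma's moderated test gave an adjusted p under 0.05 (Benjamini-Hochberg over all 27746 probe sets tested). This held for 5815 probe sets (21.0%) and, with the brightest probe set of each gene, for 2916 of 12921 genes (22.6%). Of these genes, 1740 (13.5%) were higher on day 5, with a median difference of 1.11, and 1176 (9.10%) were lower, with a median of -1.02. The median over all genes was 0.03. A difference of at least 2 was reached by 185 of the genes called higher and 137 of those called lower. The 3 day 5 arrays lay past all 3 day 1 arrays in 6288 genes (48.7%), so that a lack of overlap alone was common. Called genes without overlap numbered 2891 (22.4%).

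The 2 groups of arrays differed in technical measures as well. The ratio of the 3' to the 5' control signal of Actb, a measure of RNA integrity and labelling in which higher means less intact, was 2.09 ± 0.0437 (SD, n = 3) on day 1 and 1.44 ± 0.147 (SD, n = 3) on day 5. The same ratio of Gapdh was 0.93 ± 0.0905 and 0.869 ± 0.0481 (SD, n = 3 each). The cre spike-in, a bacteriophage control RNA, gave a linear signal of 21900 ± 3140 on day 1 and 8350 ± 1120 on day 5 (SD, n = 3 each). Pearson correlations across probe sets ran from 0.943 to 0.95 within day 1, from 0.961 to 0.97 within day 5 and from 0.887 to 0.925 between the days. Because the Actb ratio went with the day, the young change and the difference between ages were also fitted with it as a covariate. The slope of that covariate comes from the spread within groups. In the young day 3 arrays the SD of the ratio was 0.519, against 0.0437 to 0.198 in the other groups. The muscle list described below averaged 7.39 to 13.19 on those arrays, so RNA integrity and muscle content cannot be told apart in this fit. The part of the ratio in the results was otherwise not tested. All probe sets of Xist and none of 3 Y-linked genes were above the array median on the 6 arrays, as female tissue gives. Genes of cartilage, bone, blood and muscle were all measured, and the muscle list of myosins, troponins and other contractile genes averaged 12.92 to 13.12 on the day 1 arrays and 10.18 to 12.82 on those of day 5, so that RNA of skeletal muscle was present in the samples labelled callus.

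**Figure D1:**
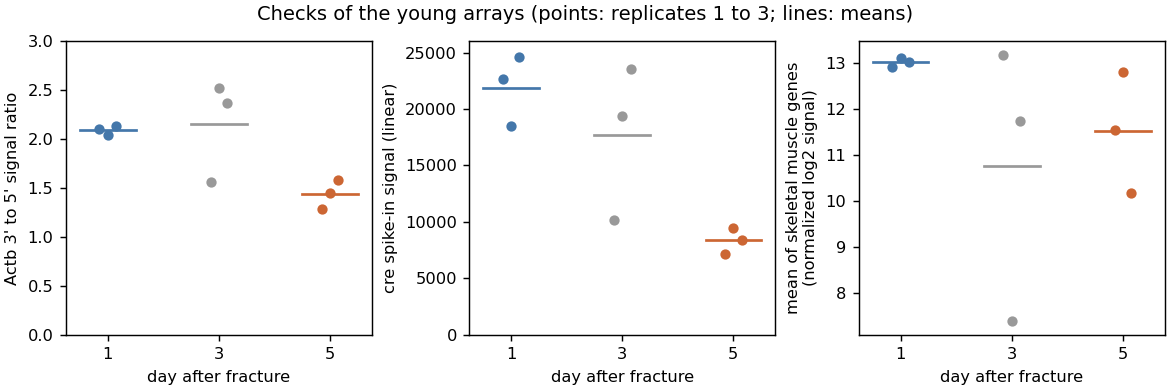
Actb 3' to 5' signal ratio (left), linear signal of the cre spike-in (middle) and mean normalized log2 signal of the 26 skeletal muscle genes (right) on each young array, by day after fracture. Points are replicates 1 to 3 from left to right and lines are group means; the Actb ratio and the spike-in were lower on all day 5 arrays than on all day 1 arrays, and the muscle mean varied most on day 3.

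Among the 12 genes with the largest increases, 6 belonged to a chondrocyte list. Of 26 measured genes of that list, 17 were called higher and 1 lower, against 13.5% and 9.10% of all genes, and the list's median difference was 2.10. Col2a1, the main collagen of cartilage, read 7.56, 7.41 and 7.29 on the day 1 arrays and 12.64, 12.56 and 13.04 on those of day 5. It rose by 5.33 ± 0.62, or 40.3-fold (adjusted p = 1.98e-05). No day 5 array came near the day 1 values, and the day 5 arrays differed from each other by far less than the days did.

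The collagen IX chains, which coat the collagen II fibril, rose with it. Col9a1 went from 5.34, 5.62 and 5.94 to 10.97, 10.49 and 11.28, an increase of 5.28 ± 0.43 (adjusted p = 6.35e-07). Col9a3 went from 4.51, 4.37 and 4.49 to 9.29, 9.15 and 9.91, an increase of 4.99 ± 0.40 (adjusted p = 5.59e-07). Both lay below the array median on all 3 day 1 arrays and above it on all 3 of day 5. Cnmd, encoding chondromodulin, an inhibitor of vessel growth made by cartilage, rose by 5.14 ± 0.60 from values of 5.05, 4.50 and 4.27 (adjusted p = 2.21e-05). Matn3, a matrilin that bridges cartilage collagens, rose by 4.53 ± 0.40 (adjusted p = 1.49e-06). Acan, the aggrecan core protein whose sugar chains hold water in cartilage, rose by 4.02 ± 0.46 (adjusted p = 1.7e-05), from 5.99, 6.97 and 6.70 to 10.06, 10.34 and 11.32.

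A pair of cartilage genes was added after their values were seen. Col10a1, the collagen of hypertrophic chondrocytes, rose by 3.17 ± 0.74 (adjusted p = 0.006). Sox9, the transcription factor of chondrocyte fate, did not pass the test, with a difference of 0.78 and a 95% interval from 0.05 to 1.51 (adjusted p = 0.119). The gene of the list that fell was Prg4, encoding lubricin, the lubricant of joint surfaces and tendon sheaths. It read 13.29, 12.41 and 13.46 on day 1 and 7.94, 9.72 and 9.42 on day 5, a fall of 4.02 on the log2 scale with an SE of 0.57 (adjusted p = 0.000132). The gene with the largest increase of all, C1qtnf3, a secreted protein also known as cartonectin, belonged to no list. Its arrays read 6.53, 5.77 and 5.89 on day 1 and 11.47, 11.63 and 11.97 on day 5, an increase of 5.63 ± 0.53 (adjusted p = 2.46e-06). With the Actb ratio as a covariate, 13 of the 26 cartilage genes were called higher and 2 lower.

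**Figure D2:**
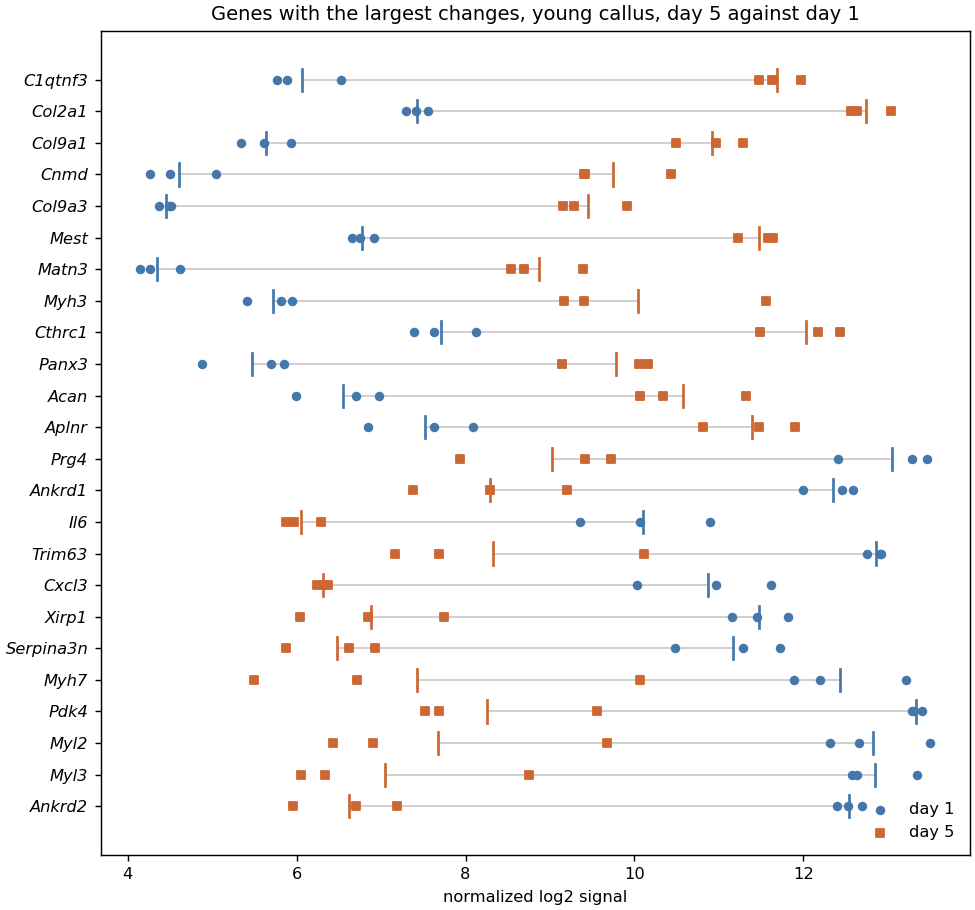
Normalized log2 signal on each young array of day 1 (blue circles) and day 5 (orange squares) for the 12 genes with the largest increase and the 12 with the largest decrease among called genes whose arrays did not overlap. Vertical ticks are group means and grey lines join them; in the muscle genes Myh7, Myl2, Myl3, Trim63 and Pdk4, day 5 replicate 2 is the square farthest to the right.

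Genes of the fibrous matrix rose too. Of 29 measured genes of a fibroblast matrix list, 22 were called higher and none lower, with a median of 1.38, and all 29 differences were above 0. Cthrc1, a secreted protein of wound and bone-forming fibroblasts, went from 7.39, 7.63 and 8.12 to 12.43, 11.49 and 12.17, an increase of 4.31 ± 0.32 (adjusted p = 3.38e-07). Ogn, a small proteoglycan also called osteoglycin or mimecan, rose by 3.51 ± 0.33 (adjusted p = 3.07e-06), from 6.84, 8.03 and 8.13 to 11.27, 11.15 and 11.09. The arrays of the 2 days were fully separate for both. Col5a1, which sets the width of collagen I fibrils, rose by 2.59 ± 0.42, Col6a2, a chain of the collagen around cells, by 2.43 ± 0.38, and Aspn, a small proteoglycan that binds TGF-beta, by 2.38 ± 0.32. Col1a1, the main collagen of bone and scar, named here after its value was seen, was called at 1.07 ± 0.35 (adjusted p = 0.0394), and leaving out any array but day 1 replicate 3 ended that call (adjusted p from 0.0829 to 0.126). Its difference was 0.11 with the Actb ratio as a covariate, 0.29 for the values as deposited and 0.26 over the mean of its probe sets (adjusted p = 0.88, 0.555 and 0.477). With the Actb ratio as a covariate, 9 of the 29 genes were called higher, with the median at 0.86.

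The enzymes and chaperones that fold and trim collagen rose alongside it. Of 24 measured genes of this list, 20 were called higher and none lower, with a median of 1.40. Serpinh1, the collagen chaperone HSP47, went from 9.12, 9.84 and 10.28 to 12.84, 12.23 and 12.51, an increase of 2.78 ± 0.28 (adjusted p = 5.11e-06). Pcolce, which speeds the trimming of procollagen ends, rose by 2.61 ± 0.34 (adjusted p = 6.08e-05). Members of the prolyl 3-hydroxylase family, P3h3, P3h1 and P3h4, rose by 2.40 ± 0.21, 2.28 ± 0.37 and 1.98 ± 0.26, and Fkbp14, a prolyl isomerase of the endoplasmic reticulum, rose by 2.34 ± 0.24. With the Actb ratio as a covariate, 14 of the 24 were called higher.

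The wider secretory pathway had calls in both directions. Of 24 measured genes of a list joining secretion with the unfolded protein response, 10 were called higher and 5 lower, and the median was 0.22. The number called higher was 6 without day 1 replicate 1 and 6 with the Actb ratio as a covariate. Kdelr3, a receptor that returns chaperones to the endoplasmic reticulum, rose by 2.37 ± 0.20 (adjusted p = 1e-06), and Sec24d, a coat protein of vesicles that carry procollagen, by 1.79 ± 0.22 (adjusted p = 3.66e-05). Creb3l1, a transcription factor held in the endoplasmic reticulum until it is cleaved, rose by 1.61 ± 0.35 (adjusted p = 0.00403; 0.18 with the Actb covariate). Dnajb9, a co-chaperone induced by misfolded protein, read 10.52, 10.67 and 10.40 on day 1 and 9.07, 8.89 and 8.98 on day 5, and fell by 1.55 on the log2 scale with an SE of 0.25 (adjusted p = 0.000369). Atf4, a transcription factor of the integrated stress response, fell by 1.15 with an SE of 0.13 (adjusted p = 1.64e-05). Ddit3 and Herpud1, both induced by stress of the endoplasmic reticulum, and Hyou1, a chaperone there, had differences of -1.14, -0.96 and -1.17. Hyou1 and Herpud1 lost their calls when arrays were centred on their medians (adjusted p = 0.0613 and 0.269).

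Among matrix proteases and their inhibitors, 11 of 24 were called higher and 2 lower, with a median of 0.70. Mmp12, the macrophage metalloelastase, went from 4.96, 4.83 and 4.34 to 9.04, 8.41 and 7.67, an increase of 3.67 ± 0.53 (adjusted p = 0.000165). The membrane-bound Mmp23 and Mmp14 rose by 2.44 ± 0.30 and 2.11 ± 0.33, the stromal Mmp11 by 2.31 ± 0.28 and Adamts12, a secreted protease that can cleave cartilage proteins, by 2.31 ± 0.24. Timp2, an inhibitor that also helps Mmp14 to activate Mmp2, rose by 1.83 ± 0.19. With the Actb ratio as a covariate, 6 were called higher and 3 lower, and the list's median was -0.04.

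**Figure D3:**
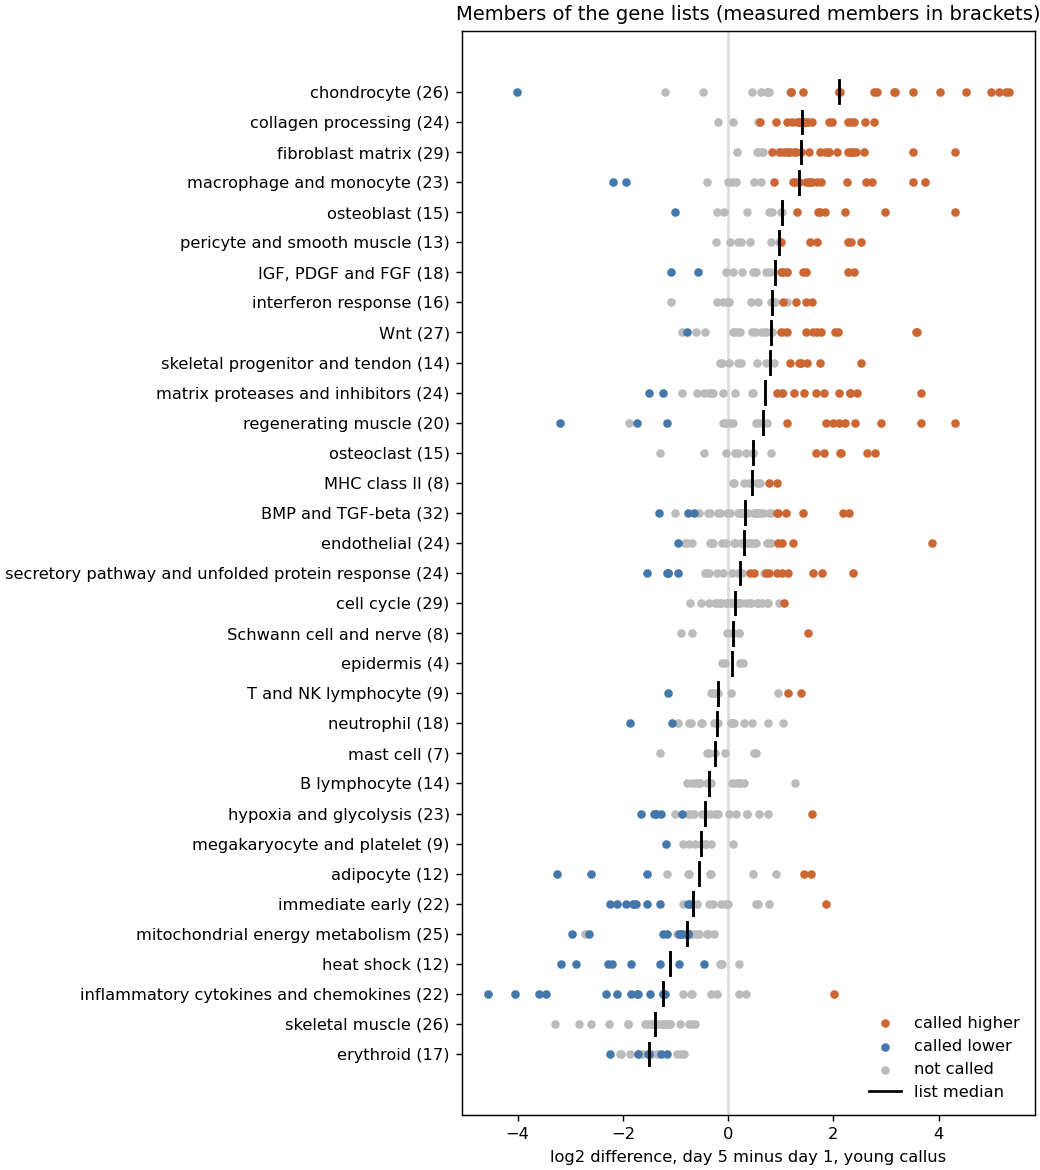
Log2 difference, day 5 minus day 1 in young callus, of each measured member of the 33 gene lists, with the number measured in brackets. Orange points were called higher, blue points lower and grey points not called, and black ticks are list medians; the chondrocyte list has the highest median, 2.10, and the erythroid list one of -1.51, while all 26 skeletal muscle genes lie below 0 and are grey.

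Bone genes rose in part. Of 15 measured genes of an osteoblast list, 7 were called higher and 1 lower, with a median of 1.03. None was called lower with any 1 of the 6 arrays left out, and 6 were higher and none lower with the Actb covariate. Panx3, a channel protein of hypertrophic chondrocytes and osteoblasts, went from 5.70, 4.88 and 5.85 to 10.05, 9.14 and 10.16, an increase of 4.31 ± 0.40 (adjusted p = 2.26e-06). Smpd3, a sphingomyelinase needed for mineralization, rose by 2.99 ± 0.35 (adjusted p = 2.16e-05), and Ifitm5, a small membrane protein found in osteoblasts, by 2.22 ± 0.42 (adjusted p = 0.00129). All 3 genes had higher signals on every day 5 array than on any day 1 array. Phex, which restrains mineralization inhibitors, rose by 1.84 ± 0.38, and Cdh11, a cadherin of mesenchymal cells, by 1.74 ± 0.26. A second probe set of Cdh11 differed by 0.54 and was not called (adjusted p = 0.131). Alpl, the alkaline phosphatase of mineralizing cells, went from 8.89, 9.03 and 9.44 to 11.26, 10.20 and 11.02 and rose by 1.71 ± 0.44 (adjusted p = 0.0107). Its adjusted p was 0.0613 without day 5 replicate 1 and 0.18 with the Actb ratio as a covariate. Sp7, or osterix, the transcription factor of osteoblast commitment, named after its value was seen, was not called, at 1.00 with a 95% interval from 0.22 to 1.78 (adjusted p = 0.0652).

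Osteoclast genes also rose in part. Of 15 measured genes, 6 were called higher and none lower, with a median of 0.48. Ocstamp, needed for osteoclast precursors to fuse, went from 4.18, 5.40 and 4.50 to 7.89, 7.26 and 7.33, an increase of 2.80 ± 0.31 (adjusted p = 1.17e-05). Atp6v0d2, a subunit of the proton pump, rose by 2.63 ± 0.39, Acp5, the tartrate-resistant acid phosphatase, by 2.14 ± 0.36, and Ctsk, cathepsin K, the protease that degrades bone collagen, by 2.12 ± 0.32. The called genes also included Dcstamp, a fusion gene, and Mmp9, a gelatinase, at 1.82 ± 0.37 and 1.66 ± 0.37. Both lost the call with the Actb ratio as a covariate (adjusted p = 0.0766 and 0.198).

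Signalling lists had calls in both directions. In the Wnt list, 10 of 27 genes were called higher and 1 lower, with a median of 0.81. None was called lower with any 1 of the 6 arrays left out. Frzb and Sfrp2 both encode secreted proteins that bind Wnt ligands. Frzb went from 4.37, 4.50 and 5.58 to 8.90, 8.00 and 8.31, an increase of 3.59 ± 0.36 (adjusted p = 5.61e-06), and Sfrp2 from 5.47, 6.30 and 6.56 to 9.53, 9.75 and 9.76, an increase of 3.57 ± 0.39 (adjusted p = 1.23e-05). Their relative Sfrp1 rose by 1.68 ± 0.29, and the receptor Fzd2 by 2.08 ± 0.27. Dkk3, of the Dickkopf family, and Ccn4, a matricellular protein induced by Wnt signalling, rose by 2.03 ± 0.37 and 1.76 ± 0.42, and both lost the call with the Actb ratio as a covariate (adjusted p = 0.067 and 0.0875), as the list went to 6 higher and 2 lower.

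In the BMP and TGF-beta list, 6 of 32 genes (median 0.32) were called higher and 3 lower. The ligand Tgfb3 rose by 2.29 ± 0.36 (adjusted p = 0.000324), and Bambi, a decoy receptor, by 2.18 ± 0.37 (adjusted p = 0.000592). With the Actb ratio as a covariate 3 were higher and 1 lower, and without any 1 array other than day 1 replicate 1 the number lower was 0 or 1. In the IGF, PDGF and FGF list, 7 of 18 were called higher and 2 lower, with a median of 0.89. The number lower was 0 or 1 with any 1 of the 6 arrays left out, and 3 were higher and 1 lower with the Actb covariate. Igf1, a growth factor of bone and muscle repair, went from 8.33, 8.11 and 8.40 to 10.33, 10.49 and 10.85 and rose by 2.28 ± 0.23 (adjusted p = 5.11e-06), and its binding protein Igfbp4 by 1.48 ± 0.24. Igf2 rose by 2.40 ± 0.59 (adjusted p = 0.00869), with adjusted p = 0.266 when the Actb ratio was a covariate.

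Skeletal progenitor and tendon genes were called higher in 6 of 14 cases and lower in none (median 0.80), and in 2 cases with the Actb ratio as a covariate. Of 13 genes of pericytes and smooth muscle, 6 were called higher and none lower, with a median of 0.96. With the Actb covariate 4 were called higher and the median was 0.07. Acta2, the smooth muscle actin also made by myofibroblasts, went from 9.74, 10.42 and 10.08 to 12.72, 12.23 and 12.86, an increase of 2.53 ± 0.25 (adjusted p = 5.11e-06). Actg2, another smooth muscle actin, rose by 2.33 ± 0.31, Tagln, the actin-binding protein transgelin, by 2.28 ± 0.23, and the smooth muscle light chain Myl9 by 1.56 ± 0.30. Of 24 endothelial genes, 4 were called higher and 1 lower, with a median of 0.30. The number higher was 2 without day 1 replicate 1, 1 without day 5 replicate 1, 2 without day 5 replicate 3 and 1 with the Actb covariate, which put 2 lower, and 2 were lower also without day 1 replicate 2 or 3. Aplnr, the apelin receptor of growing vessels and some mesenchymal cells, had the largest difference of the list, going from 6.85, 7.63 and 8.09 to 11.90, 10.81 and 11.48, an increase of 3.87 ± 0.38 (adjusted p = 4.17e-06).

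Mest, an imprinted gene of mesoderm that codes for a hydrolase-like protein, had the smallest SE among the 12 largest increases. Its arrays read 6.92, 6.66 and 6.75 on day 1 and 11.64, 11.58 and 11.22 on day 5, an increase of 4.70 ± 0.22, or 26-fold (adjusted p = 1.82e-09). Few cell cycle genes were called. Of 29 measured, 1 was called higher and none lower, with a median of 0.13, while 11 were called higher when arrays were centred on their medians. The called gene was E2f1, a transcription factor of S phase entry, at 1.06 ± 0.33 (adjusted p = 0.0293), and leaving out day 1 replicate 3 or any day 5 array ended that call (adjusted p from 0.0633 to 0.142). Mki67, a marker of cycling cells, had a difference of -0.73 with a 95% interval from -1.45 to -0.01, and the mitotic kinase Cdk1 one of 0.73 with an interval from 0.02 to 1.43.

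Inflammatory genes fell. Of 22 measured cytokines and chemokines, 13 were called lower and 1 higher, with a median of -1.24, and 8 were lower without day 1 replicate 3. The promoters of 4 called genes are shown because they hold matches to a motif of NF-kB, a transcription factor of acute inflammation. The bases come from the promoter windows of RefSeq for GRCm38.p6, written 5' to 3' on the strand of the gene, with matches on either strand in capitals, where a match is GGG followed after any 2 bases by TTTCC.

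Cxcl1: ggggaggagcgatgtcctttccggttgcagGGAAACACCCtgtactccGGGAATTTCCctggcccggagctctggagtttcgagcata
Cxcl2: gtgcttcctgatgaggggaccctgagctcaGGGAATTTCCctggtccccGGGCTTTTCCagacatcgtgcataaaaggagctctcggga
Cxcl3: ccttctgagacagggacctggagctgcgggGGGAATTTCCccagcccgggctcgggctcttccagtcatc
Il6: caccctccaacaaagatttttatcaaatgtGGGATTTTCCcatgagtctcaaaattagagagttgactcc

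The stretches are chr5:90891126-90891213 for Cxcl1, chr5:90903772-90903860 for Cxcl2, chr5:90785998-90786067 for Cxcl3 and chr5:30013040-30013109 for Il6, all on the plus strand. The motif was sought in the 250 bases before the start of each gene, and the nearest match began 71, 78, 73 and 44 bases before it, in the same order. It was found in 1.41% of 32851 windows, where a gene may have several. Counted by gene, which is a different unit, 7 of the 17 inflammatory genes that had a window had a match in any of theirs. Besides the 4 printed, which were called lower, the genes were Ccl9, a chemokine, Csf1, the macrophage growth factor, and Il1rn, the interleukin 1 receptor antagonist. These 3 were not called, with differences of -0.33, -0.22 and -0.70, so the motif was present in genes with and without a call. A match of letters is a description and not a binding site.

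Cxcl3 and Cxcl2, both neutrophil attractants, were among the largest falls. Cxcl3 read 10.96, 10.03 and 11.62 on day 1 and 6.37, 6.32 and 6.24 on day 5, and fell by 4.56 with an SE of 0.47 (adjusted p = 6.77e-06). Il6, an acute-phase cytokine, read 10.06, 9.36 and 10.89 and then 5.97, 5.88 and 6.29, and fell by 4.06 with an SE of 0.51 (adjusted p = 4.42e-05). On day 5 Il6 lay below the array median on 2 of 3 arrays, and the day 5 arrays of both genes were close together. Cxcl2 fell by 3.59 with an SE of 0.65 (adjusted p = 0.00103), with adjusted p = 0.0916 under the Actb covariate, and Cxcl1, also a neutrophil attractant, by 1.72 with an SE of 0.33 (adjusted p = 0.00142).

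Saa3, an acute-phase apolipoprotein made by macrophages and stroma, fell by 3.46 with an SE of 0.38 (adjusted p = 1.18e-05). Il11, a cytokine of the interleukin 6 family, fell by 2.32 with an SE of 0.61 (adjusted p = 0.0123). Its day 1 arrays were spread widely, at 7.64, 8.72 and 10.22, and without day 1 replicate 3 the adjusted p was 0.0725. The 1 gene called higher was Ccl8, a monocyte attractant, which rose by 2.02 ± 0.54 (adjusted p = 0.0134). It lost the call without day 5 replicate 2 (adjusted p = 0.0514), without day 5 replicate 3 (adjusted p = 0.051) and with the Actb ratio as a covariate (adjusted p = 0.0623). Under that covariate 6 of the 22 genes were called lower and none higher. Serpina3n, an acute-phase protease inhibitor also made by muscle, belonged to no list and fell by 4.69 with an SE of 0.80 (adjusted p = 0.000602).

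Macrophage genes rose. Of 23 measured, 15 were called higher and 2 lower, with a median of 1.34. Trem2, a lipid-sensing receptor of tissue macrophages and osteoclasts, went from 4.18, 4.50 and 4.48, all below the array median, to 8.49, 7.86 and 8.02, an increase of 3.74 ± 0.28 (adjusted p = 3.38e-07). Gpnmb, a glycoprotein of phagocytes and osteoclasts, rose by 3.52 ± 0.36 (adjusted p = 6.03e-06), with day 5 arrays of 9.94, 9.94 and 9.95. Ms4a7, a membrane protein of macrophages, rose by 2.74 ± 0.32, Apoe, a lipid carrier, by 2.62 ± 0.27, and Aif1, an actin-binding protein of macrophages, by 2.26 ± 0.42. The genes that fell were Cd14, a receptor for bacterial lipopolysaccharide, and Cd163, a receptor for haemoglobin complexes. Cd14 read 10.62, 10.18 and 11.21 and then 8.46, 8.21 and 8.76, a fall of 2.19 with an SE of 0.46 (adjusted p = 0.00319; 0.0641 with the Actb covariate).

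The neutrophil, B lymphocyte and mast cell lists had few calls. Of 18 neutrophil genes, 2 were called lower and none higher, with a median of -0.21. The 2 were Il1r2, a decoy receptor for interleukin 1, at -1.87, and Trem1, a receptor that amplifies inflammation, at -1.06, and both lost the call with the Actb covariate (adjusted p = 0.0816 and 0.163), as Trem1 did without day 5 replicate 1 (adjusted p = 0.0523). S100a8 and S100a9, the abundant granule proteins of neutrophils, named after their values were seen, differed by 0.06 each, with 95% intervals from -0.30 to 0.42 and from -0.34 to 0.47. Without normalization their differences were -1.03 and -0.99 (adjusted p = 0.0312 and 0.0476), so the direction rests on the scaling. None of 14 B lymphocyte genes and none of 7 mast cell genes was called, against 22.6% of all genes. Of 9 genes of T and NK cells, 2 were called higher and 1 lower, and none was higher without day 5 replicate 1 or 3, 1 was higher without any 1 of the day 1 arrays, and none was lower without day 1 replicate 1 or 2 or day 5 replicate 1 or 2. Of 8 genes of MHC class II, 2 were called higher and none lower, and none was higher without day 1 replicate 2 or 3 or any 1 of the day 5 arrays. In the interferon response list 4 of 16 were higher and none lower, with a median of 0.83. Without day 5 replicate 3 none was higher and 1 lower, with a median of 0.45, and 2 were higher without day 1 replicate 2, day 1 replicate 3 or day 5 replicate 1, and 1 with the Actb covariate. Oasl2, an interferon-induced gene, rose by 1.47 ± 0.37 (adjusted p = 0.00921; 0.058 without day 5 replicate 3).

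Immediate early genes, which cells switch on within minutes of a stimulus, were called lower in 10 of 22 cases and higher in 1, with a median of -0.66. The number higher was 2 without day 1 replicate 3, and median centring of the arrays gave 4 higher and a list median of -0.13. Atf3, a stress-induced transcription factor, read 9.04, 8.61 and 9.21 on day 1 and 6.83, 6.59 and 6.70 on day 5, and fell by 2.25 with an SE of 0.25 (adjusted p = 1.13e-05). Fosl1, a partner of Jun proteins, fell by 2.12 with an SE of 0.27 (adjusted p = 5.49e-05), and Ier3, an early response gene of survival signalling, by 1.81 with an SE of 0.28. Egr1, a zinc finger transcription factor, fell by 1.95 with an SE of 0.42 (adjusted p = 0.00377), with day 1 arrays at 12.16, 10.21 and 10.04, of which replicate 1 was the highest by far. Without that array the difference was -1.27 (adjusted p = 0.0137). Its relative Egr3 was the 1 gene that rose, from 5.66, 5.25 and 4.35 to 7.20, 6.70 and 6.90, by 1.85 ± 0.28 (adjusted p = 0.000233), and over the mean of its probe sets the difference was 0.85 (adjusted p = 0.0574).

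Heat shock genes fell in 8 of 12 cases, and none rose, with a median of -1.11. The number lower was 4 without day 1 replicate 3 or day 5 replicate 3 and 5 without day 1 replicate 2 or day 5 replicate 1. Promoters of this list are shown because matches to the heat shock element, the motif bound by HSF1, lie near the start of genes with and without a call. Matches to GAANNTTC, a head-to-head pair of heat shock units that reads the same on both strands, are in capitals, in RefSeq windows of GRCm38.p6.

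Hspb1: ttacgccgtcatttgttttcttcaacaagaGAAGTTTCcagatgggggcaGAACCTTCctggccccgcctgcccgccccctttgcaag
Hspa1b: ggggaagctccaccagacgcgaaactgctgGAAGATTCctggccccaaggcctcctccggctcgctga
Hspe1: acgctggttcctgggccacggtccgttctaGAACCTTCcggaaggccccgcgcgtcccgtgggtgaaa

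These stretches are chr5:135887772-135887859 on the plus strand for Hspb1, chr17:34959305-34959372 on the minus strand for Hspa1b and chr1:55088034-55088101 on the plus strand for Hspe1. The nearest match began 97, 104 and 84 bases before the start. The motif was in 6.69% of 32851 windows, again counted by window. Counted by gene, it was in any window of 5 of the 9 heat shock genes that had one. Those were Hspb1, Hspa1b and its near-identical copy Hspa1a, all called lower, and the mitochondrial chaperonins Hspd1 and Hspe1, which share 1 stretch between them on opposite strands and were not called. As above, a match is no evidence of binding.

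Hspb1, a small heat shock protein abundant in muscle, read 13.75, 13.57 and 13.88 on day 1 and 9.74, 11.20 and 10.72 on day 5, and fell by 3.18 with an SE of 0.65 (adjusted p = 0.00261). Cryab, its relative alpha-B crystallin, read 13.85, 13.60 and 13.50 and then 10.38, 11.71 and 10.16, and fell by 2.90 with an SE of 0.73 (adjusted p = 0.00997). Both are also muscle proteins, and as with the muscle genes described next their highest day 5 array was replicate 2. Hspa1b and Hspa1a, the inducible HSP70 genes, fell by 2.20 with an SE of 0.44 and by 1.84 with an SE of 0.37 (adjusted p = 0.00223 and 0.00206), and since their sequences are nearly identical their probes may not tell them apart. Hspd1 and Hspe1 differed by -0.13, with a 95% interval from -0.48 to 0.22, and by 0.21, with an interval from -0.41 to 0.83.

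Muscle genes were among both the largest falls and the increases. Ankrd2, a stretch-responsive protein of slow muscle, read 12.53, 12.40 and 12.69 on day 1 and 5.96, 7.19 and 6.70 on day 5, and had the largest fall of all called genes without overlap, by 5.93 with an SE of 0.69, or 60.8-fold (adjusted p = 2.16e-05). Myl3 and Myl2, the light chains of slow myosin, fell by 5.80 with an SE of 1.13 (adjusted p = 0.00179) and by 5.16 with an SE of 1.04 (adjusted p = 0.00233). For Myl2 the arrays read 13.50, 12.66 and 12.32 on day 1 and 6.43, 9.67 and 6.91 on day 5. Day 5 replicate 2 was thus closer to day 1 than the other day 5 arrays were, with no overlap. Myh7, the slow myosin heavy chain, read 13.21, 12.20 and 11.89 and then 5.50, 10.06 and 6.72, and fell by 5.00 with an SE of 1.36 (adjusted p = 0.0153). That call ended without day 1 replicate 1, day 5 replicate 1 or day 5 replicate 3 (adjusted p = 0.0586, 0.0906 and 0.0561).

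Other genes known from muscle fell as well. Pdk4, the kinase that turns muscle from glucose to fat, read 13.31, 13.29 and 13.41 and then 7.52, 9.56 and 7.69, a fall of 5.08 with an SE of 0.63 (adjusted p = 3.52e-05). Xirp1, an actin-binding protein of damaged muscle, fell by 4.60 with an SE of 0.73 (adjusted p = 0.000352), Trim63, a ubiquitin ligase of muscle atrophy, by 4.53 with an SE of 0.79 (adjusted p = 0.000742), and Ankrd1, a relative of Ankrd2, by 4.06 with an SE of 0.56. The list of mature muscle genes, mostly of fast fibres, was lower without a call. All 26 differences were below 0, from -3.29 to -0.64 with a median of -1.39, and none of the 26 was called, against 9.10% of all genes called lower. Myh2, the myosin of fast oxidative fibres, differed by -3.29 ± 1.21 (adjusted p = 0.0628) and Mb, myoglobin, by -2.83 ± 1.05 (adjusted p = 0.0638). The list averaged 7.39 to 13.19 over the young day 3 arrays, and their spread enters the error of every difference; without those arrays 19 of the 26 were called lower, and under the Actb covariate 20, where the median was -3.76. The median was -0.63 without day 5 replicate 3, and without day 5 replicate 2 it was -2.02 with 3 genes called lower.

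Of 20 measured genes of regenerating muscle, 9 were called higher and 3 lower, with a median of 0.66. The number higher was 4 without day 5 replicate 2 and 4 with the Actb ratio as a covariate, and none was lower without day 1 replicate 1, day 5 replicate 1 or day 5 replicate 3. Myh3, the embryonic myosin heavy chain, went from 5.81, 5.41 and 5.95, all below the array median, to 9.17, 11.56 and 9.40, an increase of 4.32 ± 0.79 (adjusted p = 0.00107). Myh8, the perinatal myosin, went from 4.63, 5.58 and 6.07 to 7.62, 11.05 and 8.58, an increase of 3.66 ± 0.65 (adjusted p = 0.0008). Mymx, encoding the fusion peptide myomixer, rose by 2.91 ± 0.61 (adjusted p = 0.00299). In all 3 genes replicate 2 was the highest of the day 5 arrays, as it was for the slow and mature muscle genes. Myf6, a myogenic factor of mature fibres, fell by 3.20 with an SE of 0.91 (adjusted p = 0.0193), a call that ended without day 1 replicate 1 or 2 or without day 5 replicate 1 or 3 (adjusted p from 0.0531 to 0.0981).

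Genes of mitochondrial energy metabolism were called lower in 11 of 25 cases. All 25 differences were below 0, with a median of -0.79. The number called was 3 without day 5 replicate 3, 7 without day 1 replicate 2, day 1 replicate 3 or day 5 replicate 1, and 3 when arrays were centred on their medians, which put the median at -0.46. Cox7a1, a subunit of cytochrome oxidase in muscle and heart, had the largest difference, -2.96 ± 0.80 (adjusted p = 0.0145; 0.0824 without day 5 replicate 3). Hadhb, of fatty acid oxidation, fell by 1.24 with an SE of 0.29 (adjusted p = 0.0063), and lost the call when arrays were centred on their medians (adjusted p = 0.0552). The number of list genes called lower was 20 without the young day 3 arrays and 20 with the Actb covariate. Under that covariate the list median was -1.33. The muscle list above fell on the same arrays, and its part in this result was not tested.

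In the hypoxia and glycolysis list, 6 of 23 genes were called lower and 1 higher, with a median of -0.45. With the Actb covariate 11 were lower and the median was -0.92, and with arrays centred on their medians 2 were lower and 4 higher, with a median of -0.19. Without day 1 replicate 1 the number higher was 2. Slc2a1, the glucose transporter GLUT1, read 10.34, 10.19 and 10.38 and then 8.59, 8.88 and 9.23, a fall of 1.41 with an SE of 0.22 (adjusted p = 0.000355). Pfkfb4, a regulator of glycolysis, fell by 1.27 with an SE of 0.18 (adjusted p = 0.000108). Of 12 adipocyte genes, 3 were called lower and 2 higher, with a median of -0.55. Without day 5 replicate 3 the median was -0.32, 1 was higher without day 1 replicate 3 or day 5 replicate 1, and with the Actb covariate 6 were lower and 1 higher, with a median of -1.65. Plin4, a lipid droplet coat protein of fat and muscle, fell by 3.26 with an SE of 0.70 (adjusted p = 0.0035), and Pnpla2, the triglyceride lipase of fat and muscle, by 2.60 with an SE of 0.44 (adjusted p = 0.000522).

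Red cell genes had a median of -1.51. All 17 differences were below 0, and 6 were called lower. Slc4a1, the anion exchanger of the red cell membrane, read 12.58, 12.29 and 11.81 on day 1 and 8.79, 10.29 and 11.46 on day 5, a difference of -2.04 ± 0.83 that was not called (adjusted p = 0.0891). Klf1, the transcription factor of erythroid cells, read 10.40, 10.41 and 10.18 and then 7.28, 8.48 and 9.62, a difference of -1.87 ± 0.68 (adjusted p = 0.0609). Day 5 replicate 1 was lowest and replicate 3 highest for both genes. Tal1, another erythroid factor, fell by 1.72 with an SE of 0.45 (adjusted p = 0.012), a call lost without day 5 replicate 1 (adjusted p = 0.0754) or with the Actb covariate (adjusted p = 0.1). The count of erythroid genes called lower was 1 without day 1 replicate 1 or day 5 replicate 1, 3 without day 1 replicate 2, 11 without day 5 replicate 3, 1 with the Actb covariate and 15 when only the 6 arrays compared were fitted. Of 9 platelet genes, 1 was called lower and none higher, with a median of -0.52, and none was called lower with any 1 of the 6 arrays left out. Lists of nerve and epidermis had 1 of 8 and none of 4 genes called.

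**Figure D4:**
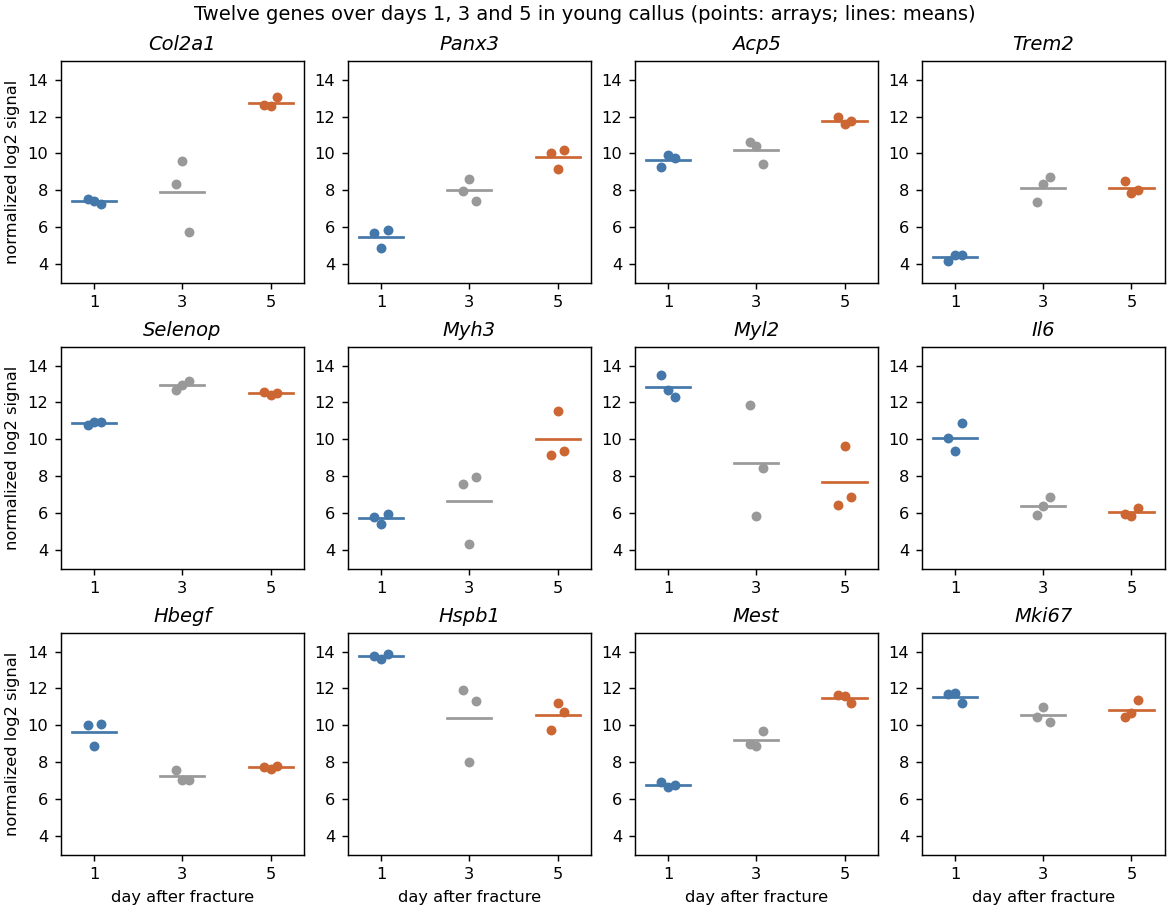
Normalized log2 signal of 12 genes on each young array by day after fracture; points are replicates 1 to 3 from left to right and lines are group means. Trem2 and Il6 on day 3 were close to day 5, Col2a1 and Myh3 on day 3 overlapped day 1, and the muscle genes Myl2 and Hspb1 were widely spread on day 3.

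The young day 3 arrays give values for a time between the days compared. These values share the day 1 arrays with the comparison above and are given side by side without a test between them. By day 3 the macrophage list had a median difference from day 1 of 1.45, beside 1.34 on day 5, and the inflammatory list one of -0.89, beside -1.24. The chondrocyte list stood at 0.27 on day 3 and 2.10 on day 5, and the fibroblast matrix list at 0.03 and 1.38. Col2a1 had a mean of 7.90 ± 1.94 (SD, n = 3) on day 3, against 7.42 ± 0.13 on day 1 and 12.75 ± 0.26 on day 5. The day 3 arrays were the least uniform, with correlations of 0.874 to 0.928 among themselves. Their Actb ratio was 2.15 ± 0.519 (SD, n = 3), beside 2.09 on day 1 and 1.44 on day 5. Its part in the day 3 values was not tested.

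Peaks and dips on day 3 were sought only among genes called between day 1 and day 5 without overlap. A gene back at its day 1 level by day 5 could not be counted, so the numbers do not show how common such patterns were. Of the called genes without overlap, 33 (0.255% of all genes) had all 3 day 3 arrays above those of both other days, and 41 (0.317%) had them below. Selenop, a secreted selenium carrier, read 12.66, 12.94 and 13.16 on day 3, above 10.79, 10.95 and 10.93 on day 1 and 12.55, 12.43 and 12.51 on day 5. Npl, an enzyme of sialic acid breakdown, read 8.32, 8.70 and 9.22 on day 3, with a rise of 1.61 ± 0.35 from day 1 to day 5. Hbegf, an EGF-family growth factor, was lowest on day 3, at 7.61, 7.07 and 7.06 against 7.77, 7.62 and 7.82 on day 5, and Sphk1, a sphingosine kinase, and Slc39a14, a zinc and iron transporter, had the same shape. These patterns are described and were not tested.

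The old callus over the same days, measured on other arrays, moved in the same direction where both were called. In old callus 10516 probe sets (37.9%) and 5067 genes (39.2%) were called between day 1 and day 5. Of the 1740 genes higher in young callus, 1497 were also higher in old, which is 86% of the young and 52.7% of the old list of 2840. Of the 1176 genes lower in young callus, 959 were also lower in old, or 81.5% of the young and 43.1% of the old list of 2227, and no gene was called in opposite directions. The number called is not by itself a test of a greater change in old callus. The SE of a gene was the same for both ages, from the same fit with equal numbers of arrays. List medians were larger in old callus for fibroblast matrix (2.56, against 1.38 in young) and collagen processing (2.13 against 1.40). They were smaller for macrophage genes (0.85 against 1.34) and the interferon response (0.15 against 0.83). The next test compares the changes gene by gene, and the size of change over all genes was not tested.

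The difference between the young and the old change was called for 2 of 12921 genes (0.0155%) and 3 of 27746 probe sets (0.0108%), while 1954 probe sets had an unadjusted p under 0.05. The other probe set has no gene in the annotation. Both genes fell in old callus and were not called in young callus. Erdr1, a gene of the pseudoautosomal region of the sex chromosomes, read 13.11, 11.97 and 12.85 on young day 1 and 11.76, 12.04 and 11.58 on young day 5, a difference of -0.85 ± 0.36 (adjusted p = 0.0987). In old callus it read 11.86, 12.32 and 11.89 on day 1 and 6.76, 7.09 and 5.98 on day 5. The young change exceeded the old by 4.56 ± 0.50 (adjusted p = 0.000961). These values come from a probe set of a type whose probes may match other transcripts. A second probe set of Erdr1 had a difference of changes of 1.79 ± 0.67 (adjusted p = 0.608), with 0.17 in young and -1.62 in old callus. Mid1, a ubiquitin ligase whose gene spans the boundary of that region in laboratory mice, read 10.47, 9.06 and 8.99 and then 9.34, 9.45 and 8.92 in young callus, a difference of -0.27 ± 0.30 (adjusted p = 0.557). In old callus it went from 9.48, 10.10 and 9.79 to 6.50, 6.54 and 6.61, and the young change exceeded the old by 2.97 ± 0.43 (adjusted p = 0.0193). That call ended without replicate 2 or 3 of young day 1, replicate 1 or 2 of young day 5, replicate 2 of old day 1 or any 1 of the old day 5 arrays (adjusted p from 0.057 to 0.107). No gene of any list was called in this test.

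**Figure D5:**
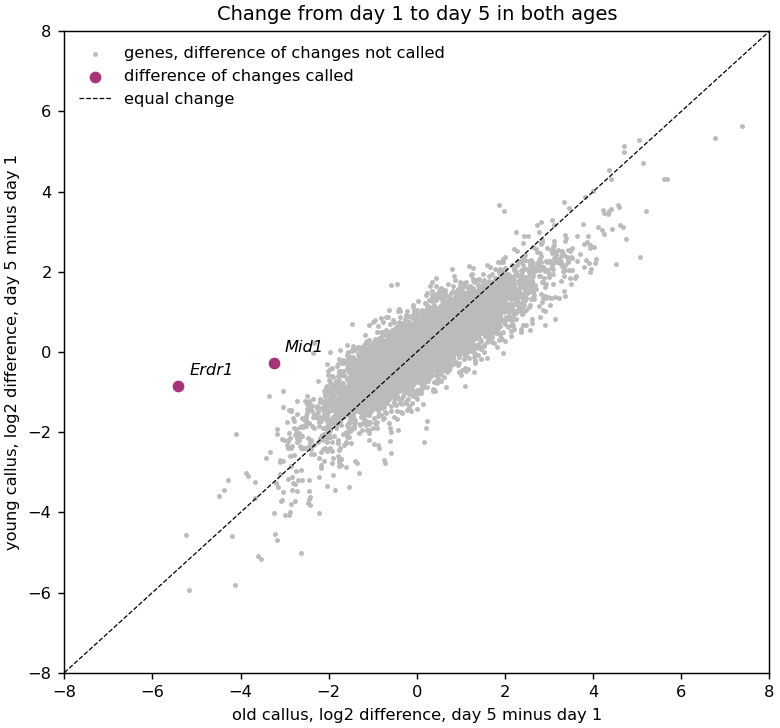
Change from day 1 to day 5 on the log2 scale in young callus (vertical axis) against old callus (horizontal axis) for 12921 genes, from separate arrays. The dashed line marks an equal change; Erdr1 and Mid1, the 2 genes whose changes were called different, lie far to the left of it.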

How the data were processed

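Callus RNA was taken up in Trizol, biotin labelled and hybridised by the standard Affymetrix protocol, per the labels' protocols. The measurements are linear intensity values as deposited by the authors, with a signal for each probe set on each array. Their algorithm and scaling, not given in the sources used here, were taken as unknown. In the values, the mean of an array, trimmed by 2% at either end, was 150 throughout, and medians ranged over 35.99 to 72.38. Precision is limited by the number of arrays.

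Logarithms were taken as log2(value + 16). Array medians on that scale differed by up to 0.77, more than the 0.5 allowed, so limma 3.58.1 (R 4.3.3) was used for quantile normalization. Testing covered the 27746 probe sets that were brighter than the array median on 3 or more of 18 arrays, with 64 control probe sets removed. One fit over the 18 arrays estimated the group means (lmFit, then eBayes with trend=TRUE, total degrees of freedom 17.3). P-values were adjusted by Benjamini-Hochberg over the tested probe sets, with calls under 0.05. A contrast in that fit gave the young change minus the old change. The 95% intervals hold for single genes and are not adjusted for their number.

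Gene names follow the 2016 platform annotation (34958 probe sets with 1 gene, 932 with several, which were not named, and 9211 with none), and 34754 were brought up to RefSeq for GRCm38.p6 by gene identifier. The brightest tested probe set stands for a gene. Opposite calls among the probe sets of a gene occurred in 52 of 5928 genes that had several, none of them named in the text. Some named genes besides Cdh11 had a further probe set without a call. Among them were Ms4a7 (0.73), Fosl1 (-1.16), Hadhb (-0.18), Hyou1 (-0.92) and Igf2r (0.64). Of 702 listed genes, 659 are on the array. The rule for names took the 12 largest differences each way among called genes without overlap, the 6 largest of each list, genes called in the difference of changes, and genes whose day 3 arrays lay past both other days. Cxcl1, Ccl8, Ccl9, Csf1, Il1rn, Hspd1, Hspe1, Ddit3, Herpud1, Cd163, the imprinted genes and others so marked were named after their values were seen. The samples, the 33 lists and the tests were chosen with earlier results of these data known.

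Nothing in the labels says that replicate numbers pair the arrays. Same-numbered deviations from the group means correlated at -0.04, 0.08 and 0.01. These values cannot decide it, since differently numbered arrays were not set beside them. On simulated data for day 5 minus day 1 (27746 probe sets, 200 changed), 0 of 50 changes of 0.5 on the log2 scale were called, 9 of 50 of 1, 44 of 50 of 2 and 48 of 50 of 3, and 6 of 27546 unchanged probe sets. The simulated noise was independent between probe sets, with no technical difference between days and no normalization step. Far fewer probe sets changed than were called in the data, so these rates may not hold for the real arrays. Alternatives were other scalings, pseudocounts of 1 and 64, other filters, eBayes without a trend, array weights, the replicate block, a 2-fold threshold, fewer groups, averaged probe sets, the Actb ratio as a covariate and each array left out in turn. Promoter windows on chromosome 18 were not used here. Another motif, the CArG box (CC and GG around 6 bases of A or T), was also sought, in the pericyte and smooth muscle list. It was in 1.47% of 32851 windows and, counted by gene, in 1 of the 10 list genes with a window, Myl9.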

Additional observations from a re-analysis of the deposited data

Results flagged for a closer look

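A pair of genes changed differently in young and old callus between day 1 and day 5, by limma's contrast of the 2 changes with Benjamini-Hochberg adjustment. For Erdr1 the young change minus the old change was 4.56 on the log2 scale (adjusted p = 0.000961), and for Mid1 it was 2.97 (adjusted p = 0.0193). All 3 old arrays of day 5 lay below all old arrays of day 1 and all young arrays of both days, for both genes. The Erdr1 value comes from a probe set of a type whose probes may match other transcripts, and its other probe set gave 1.79 (adjusted p = 0.608). The Mid1 call ended when any 1 of 8 of the 12 arrays compared was left out (adjusted p from 0.057 to 0.107). The strain labels of these mice conflict, and the part of strain in the 2 differences was not tested.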

How the results depend on the processing

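The number of probe sets called between day 1 and day 5 in young callus, 5815 of 27746, rose to 9465 when arrays were centred on their medians, and to 9659 with array weights, and fell to 287 with a 2-fold threshold. It ran from 2989 without day 5 replicate 1 to 4673 without day 1 replicate 2. With the replicate block it was 5550, and the block ended no call of a named gene. The share of calls that were higher was 57.6%, against 44.9% for the values as deposited (7393 called) and 82.6% with median centring, which put the median of all probe sets at 0.32. The 3 probe sets whose change differed between ages became 1 without cross-hybridising probe sets, 7 with array weights, 9 with only the arrays of days 1 and 5 and 12 without the young day 3 arrays, and 2 to 5 with 1 array left out. Reversed differences were small or rested on the scaling. With median centring they were 0.03 for Ccl9, 0.32 for Csf1, 0.22 for Hspd1, 0.26 for Mid1, -0.63 for S100a8 and -0.59 for S100a9. As deposited they were -1.03 for S100a8 and -0.99 for S100a9, with the Actb ratio as a covariate 0.13 for Ccl9, and with 1 array left out they ran from -0.17 to 0.40 for Hspe1 and from -0.53 to 0.21 for Mid1, turning without day 1 replicate 1. None of these genes was called by the fit reported. The causes were not tested. The Actb ratio ended more calls of named genes than any other alternative except the 2-fold threshold, 17 in all. Centring on medians raised the number called higher from 4 to 12 in the endothelial list, from 6 to 14 in the BMP and TGF-beta list, from 6 to 11 in the osteoclast list, from 7 to 12 in the IGF, PDGF and FGF list and from 4 to 9 in the interferon list.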

Other observations

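Imprinted genes, which are expressed from 1 parental copy and many of which act in growth of the embryo, were listed after the rise of Mest had been seen, so their counts are a description with no test. Of 31 listed, 22 were measured, and 10 were called higher and none lower in young callus, with a median difference of 0.66, beside 13.5% and 9.10% of all genes and a median of 0.03. Besides Mest, Igf2 and Igf2r, these were Plagl1, a zinc finger transcription factor, at 3.61 ± 0.28 (SE), Grb10, an adaptor that restrains insulin-family receptors, at 2.51 ± 0.28, and Peg3, a zinc finger gene of the mesoderm, at 2.47 ± 0.34. Ndn, encoding necdin, Cdkn1c, an inhibitor of the cell cycle, the non-coding Meg3 and the sarcoglycan gene Sgce had differences of 2.02 ± 0.40, 1.97 ± 0.38, 1.65 ± 0.29 and 1.26 ± 0.17. Igf2r, the receptor that clears Igf2, had 1.43 ± 0.32 (adjusted p = 0.00508; 0.29 with the Actb ratio as a covariate). In old callus 12 of the 22 were called higher and 1 lower, with a median of 1.28.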
